A study of Saccharomyces cerevisiae with 6 samples.

Results

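Genes that make phospholipids and inositol in baker's yeast, or that control this synthesis, were followed in cultures grown with and without ethanol. They were 10 in number, INO1, ITR1, INO2, INO4, OPI1, CHO1, CHO2, OPI3, PSD1 and PSD2, taken by gene symbol from the array's probe annotation. All 10 were measured, with 1 probe each, among 6345 features (5650 named genes and 695 probes without a gene name). There were 3 cultures with 6.5% (v/v) added ethanol and 3 control cultures without ethanol. All were separate cultures of the haploid Saccharomyces cerevisiae strain W303-1A, a MATa strain of the laboratory that carries the alleles ade2-1, his3-11, 15, leu2-3, 122, ura 3-1, can1-100 and trp1-1. All grew at 30 °C in YEPD, a rich medium of glucose, peptone and yeast extract. One parent culture seeded all of them, and the sources used here give neither the time in ethanol nor the inositol and choline content of the medium.

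Each culture was compared on its own 2-colour array with pooled RNA of all 3 control cultures, and every value below is a log2 ratio of culture over pool unless it is called a change. On the culture 1 array of each group the pool was labelled red (dye-swapped), and on the arrays of cultures 2 and 3 the culture was red. The deposited ratios were read as red over green, since the labels call culture red and pool green the normal orientation. This direction is likely but not stated, and if it were the other way round every direction given here would be opposite. A ratio holds no absolute level, so the mating type and strain could not be checked by markers. RNA came from equal numbers of cells, and a change in total RNA per cell cannot be told apart from changes of single genes.

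The arrays differed by dye orientation. After the swapped arrays were turned, 6.5% culture 1 correlated across probes at r = −0.06 and −0.10 with 6.5% cultures 2 and 3, against 0.85 between those 2, and at −0.62 with each of 0% cultures 2 and 3. The turned array of 0% culture 1 correlated at −0.38 and −0.44 with 0% cultures 2 and 3, against 0.67 between those 2. Probes are not independent replicates, so these values are descriptions. A dye term was therefore part of the test, and changes without the swapped arrays are given beside those of all arrays for the 10 genes. The ratios also drifted smoothly along the probe number, differently on each array (from −0.72 to 1.45 on 6.5% culture 1), and changes with this trend removed are plotted for the 10 genes and given in the text where they moved most. The number of arrays limits the precision.

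In yeast, phosphatidylserine is made from CDP-diacylglycerol and serine, decarboxylated to phosphatidylethanolamine, and methylated stepwise to phosphatidylcholine. Inositol is either taken up or made from glucose-6-phosphate, and it enters phosphatidylinositol, which draws on the same CDP-diacylglycerol. The activators Ino2 and Ino4 bind together to an element in the promoters of many of these genes, and the repressor Opi1 turns them down when inositol is plentiful. Opi1 is held outside the nucleus by phosphatidic acid at the endoplasmic reticulum, which ties the transcription of the pathway to the lipid it consumes.

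Of the 10 genes, OPI3 rose with ethanol and the other 9 did not pass the test. OPI3, the enzyme of the last methylation steps to phosphatidylcholine, was 4.21-fold higher. INO1, INO4, CHO2, ITR1 and CHO1 had positive changes, and PSD1, OPI1, INO2 and PSD2 had negative ones. None of these 9 changes was called. The 1 call is 10.0% of the 10 genes, where 18.1% of all features were called (1150 of 6345), 7.69% as higher and 10.4% as lower. The median change of the 10 genes was 0.23 on the log2 scale, against 0.04 over all features, and the median absolute change was 0.51 against 0.56. With the probe-number trend removed the median change of the 10 was 0.01, against 0.03 over all features. A call here is an adjusted p below 0.05 from limma (two-sided, Benjamini-Hochberg over all features).

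**Figure D1:**
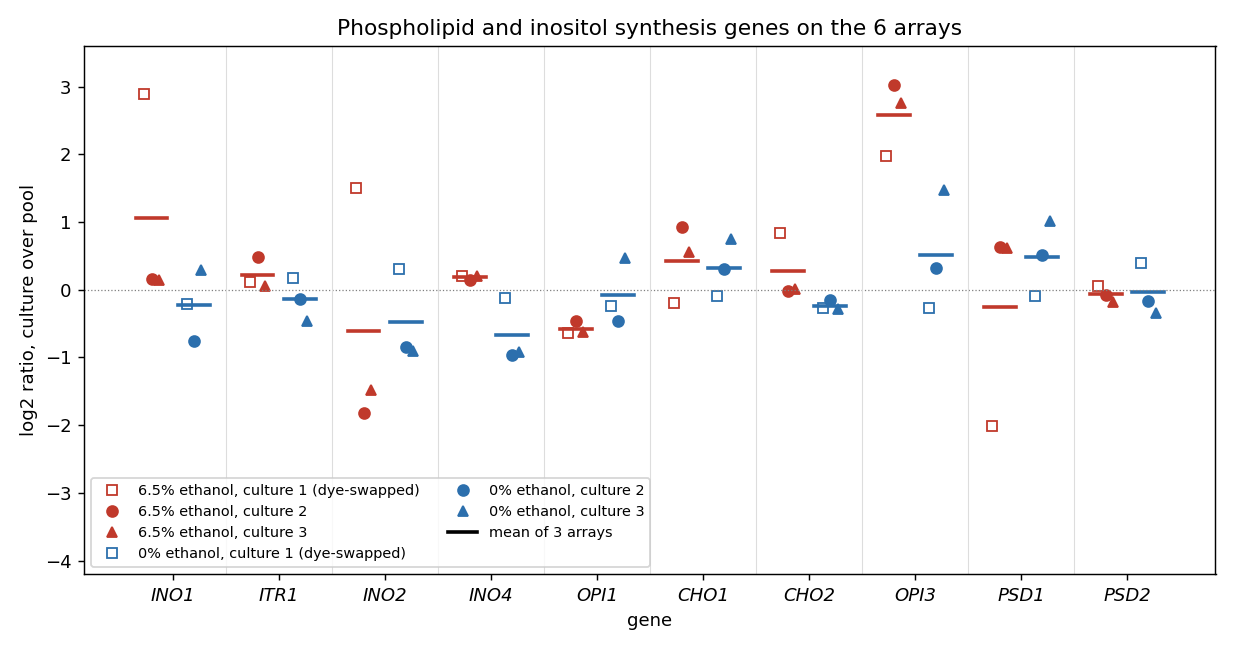
Log2 ratio of culture over pool for each of the 10 genes, with 6.5% ethanol (red) left of 0% ethanol (blue), 1 symbol per array and a line at the mean of 3 arrays. Hollow squares are the dye-swapped arrays of culture 1. OPI3 lies higher on all 3 arrays with ethanol, from 1.98 to 3.02, while the 6.5% culture 1 array stands apart from cultures 2 and 3 for INO1, INO2 and PSD1.

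The genes from phosphatidylserine to phosphatidylcholine held the called change. OPI3 (YJR073C) read 1.98, 3.02 and 2.75 in 6.5% cultures 1, 2 and 3, against −0.27, 0.33 and 1.47 in 0% cultures 1, 2 and 3. Every array with ethanol was above every array without it, although 0% culture 3 was also well above the pool. OPI3 averaged 2.59 ± 0.54 with ethanol and 0.51 ± 0.89 without (SD, n = 3 each). Its change was 2.07 ± 0.35 (SE, 95% interval 1.24 to 2.91, adjusted p = 0.0142), which placed it at the 98.8th percentile of all changes. Both dye orientations gave a similar size, 2.25 between the swapped arrays and 1.99 between the others, a difference of 0.26 ± 0.75 (adjusted p = 0.916). The call of OPI3 was lost without 6.5% culture 2 (2.02, adjusted p = 0.0826) or 6.5% culture 3 (2.18, adjusted p = 0.0708), fits that called 0.0315% and 0.804% of all features (2 and 51 of 6345). It was also lost after scaling the arrays to equal spread, after quantile normalization and without the dye term. Its change stayed between 1.77 and 2.59 in all 13 alternative settings, the 2.59 being against the pool alone. By the balanced design, dropping the dye term or adding a replicate block cannot move the change. Leaving out either swapped array gives the same fit as leaving out both.

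CHO2 (YGR157W), which adds the first methyl group to phosphatidylethanolamine, read 0.84, −0.02 and 0.01 with ethanol, against −0.27, −0.16 and −0.28 without. The groups did not overlap, but only 6.5% culture 1 was clearly above the pool. The change of CHO2 was 0.52 ± 0.28 (95% interval −0.16 to 1.19, adjusted p = 0.241), and 0.22 on the arrays that were not swapped. OPI3 and CHO2 act in sequence, and a difference between their changes was not tested.

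CHO1 (YER026C), phosphatidylserine synthase, read −0.19, 0.93 and 0.55 with ethanol, against −0.09, 0.31 and 0.76 without. The groups overlapped fully, with a change of 0.11 ± 0.27 (95% interval −0.54 to 0.75, adjusted p = 0.815), and of 0.21 without the swapped arrays. Its sign turned with the processing, to −0.13 once the trend along the probe number was removed.

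Phosphatidylserine is decarboxylated by PSD1 in mitochondria and by PSD2 in the Golgi and endosomes. PSD1 (YNL169C) read −2.01, 0.63 and 0.61 with ethanol, against −0.09, 0.52 and 1.02 without. The low value with ethanol was that of the dye-swapped array alone, and cultures 2 and 3 lay within the range of the controls. The change of PSD1 was −0.74 ± 0.41 (adjusted p = 0.243), −0.15 without the swapped arrays and −0.42 with the probe-number trend removed. PSD2 (YGR170W) read 0.06, −0.07 and −0.18 with ethanol, against 0.40, −0.17 and −0.34 without. All 6 values of PSD2 were near the pool, and its change of −0.03 ± 0.25 had a 95% interval from −0.63 to 0.57 (adjusted p = 0.949). The interval of PSD2 thus leaves room for changes of up to about that size in either direction. Without the swapped arrays the change of PSD2 was 0.13.

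**Figure D2:**
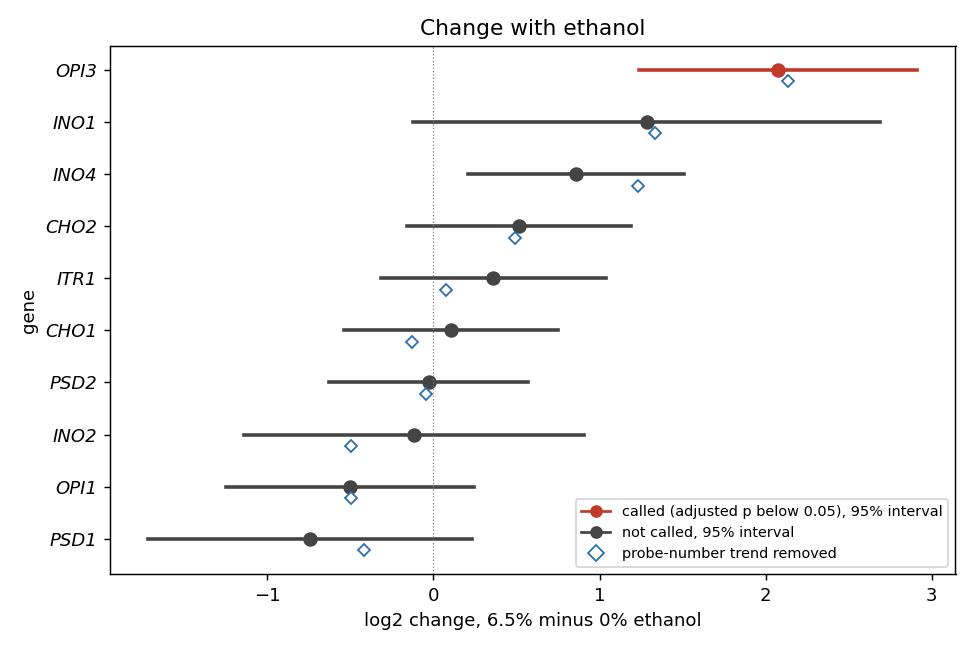
Log2 change of each of the 10 genes, 6.5% minus 0% ethanol, ordered from high to low, with its 95% interval from limma. Hollow diamonds give the change after the trend along the probe number was removed. Only OPI3 was called as deposited, and INO4 moved to 1.23 and was called as well with the trend removed.

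Of the inositol genes, neither passed the test. INO1 (YJL153C), which makes inositol-3-phosphate and is the classical readout of this regulation, read 2.89, 0.15 and 0.14 with ethanol, against −0.21, −0.76 and 0.30 without. The 2.89 was that of the dye-swapped array, while the other arrays with ethanol lay below 0% culture 3. The change of INO1 was 1.29 ± 0.59 (95% interval −0.12 to 2.69, adjusted p = 0.173), the widest interval of the 10 genes. Between the swapped arrays the change was 3.10, and between the others 0.38 (adjusted p = 0.531). INO1 was called neither with nor without the swapped arrays, and its size differed between these fits.

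ITR1 (YDR497C), the main inositol transporter of the plasma membrane, read 0.11, 0.49 and 0.06 with ethanol, against 0.18, −0.14 and −0.46 without. The groups overlapped, and the change was 0.36 ± 0.28 (95% interval −0.32 to 1.04, adjusted p = 0.403). The change of ITR1 was 0.57 without the swapped arrays and 0.08 with the probe-number trend removed, and was called in neither fit.

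Among the regulators, INO4 came nearest to the threshold. INO4 (YOL108C), the partner of Ino2 in the activator, read 0.21, 0.15 and 0.21 with ethanol, against −0.12, −0.97 and −0.92 without. The groups did not overlap, and the values with ethanol were close together. The distance came from 0% cultures 2 and 3, which read below a pool that contained their own RNA. INO4 averaged 0.19 ± 0.03 with ethanol and −0.67 ± 0.47 without (SD, n = 3 each), a change of 0.86 ± 0.27 (95% interval 0.21 to 1.51, adjusted p = 0.0725). The call of INO4 depended on the processing. Its change was called without the swapped arrays (1.12, adjusted p = 0.0384, in a fit that called 19.7% of all features) and with the probe-number trend removed (1.23, adjusted p = 0.0267).

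The trend was large at the position of the INO4 probe. It was −0.66, 0.22 and 0.25 on the arrays with ethanol, against −0.14, 0.59 and 0.48 on those without. After its removal INO4 read 0.87, −0.07 and −0.04 with ethanol, against 0.02, −1.56 and −1.40 without. In that reading the group means were still ordered in the same way, but the arrays split by dye orientation, the swapped array being the highest in each group. The groups then overlapped, since 0% culture 1 lay above 6.5% cultures 2 and 3.

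INO2 (YDR123C), the subunit of the activator that carries its activation domain, read 1.50, −1.82 and −1.49 with ethanol, against 0.31, −0.85 and −0.91 without. In both groups the swapped array was above the pool and the others below it. The change of INO2 was −0.12 ± 0.43 (95% interval −1.14 to 0.90, adjusted p = 0.871). It was 1.19 between the swapped arrays and −0.77 between the others, so that no direction could be given. With the probe-number trend removed INO2 was at −0.50 and not called. OPI1 (YHL020C), the repressor, read −0.64, −0.46 and −0.63 with ethanol, against −0.24, −0.46 and 0.47 without. All 3 values with ethanol lay below the pool, and 0% culture 2 nearly touched them. The change of OPI1 was −0.50 ± 0.31 (95% interval −1.25 to 0.24, adjusted p = 0.296), or −0.55 without the swapped arrays. Its sign was negative in all 13 alternative settings, some of which must give the same change by design.

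The groups did not overlap for 4 of the 10 genes (40.0%), INO4, CHO2 and OPI3 being above and OPI1 below. Over all features 25.3% did not overlap, 11.3% being above and 14.0% below. The order of the changes ran from OPI3 through INO1, INO4, CHO2, ITR1, CHO1, PSD2, INO2 and OPI1 to PSD1. The 95% intervals of all neighbours in this order overlapped, and differences between genes were not tested.

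The dye term was called for some of these genes, at a share below that over all features. As deposited, before any array was turned, INO2, CHO1, PSD1 and PSD2 had the same sign on all 6 arrays. The share of all features with 1 sign throughout was not computed. INO2 was negative throughout, at −1.50, −1.82 and −1.49 with ethanol, against −0.31, −0.85 and −0.91 without. PSD1 was positive throughout, at 2.01, 0.63 and 0.61 with ethanol, against 0.09, 0.52 and 1.02 without. The dye term was called for INO2 and PSD1 alone among the 10 (adjusted p = 0.0147 for INO2 and 0.0242 for PSD1 in limma), or 2 of 10, where it was called for 34.0% of all features.

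Whether the swapped and the other arrays gave different changes was tested as an interaction of ethanol and orientation. Orientation coincides with culture 1, and the 2 cannot be told apart. None of the 10 genes was called in limma, where 0.473% of all features were (30 of 6345). At an unadjusted p below 0.05 there were 3, namely INO1, INO2 and PSD1, against 13.8% of all features. The difference of the changes was 2.73 ± 0.71 for INO1 (adjusted p = 0.186), 1.97 ± 0.51 for INO2 (adjusted p = 0.184) and −1.78 ± 0.54 for PSD1 (adjusted p = 0.235). These tests had 2 residual degrees of freedom. The signs of the changes in the swapped and the other arrays were opposite for 4 of the 10 genes (INO2, ITR1, CHO1 and PSD2), and for 33.4% of all features.

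**Figure D3:**
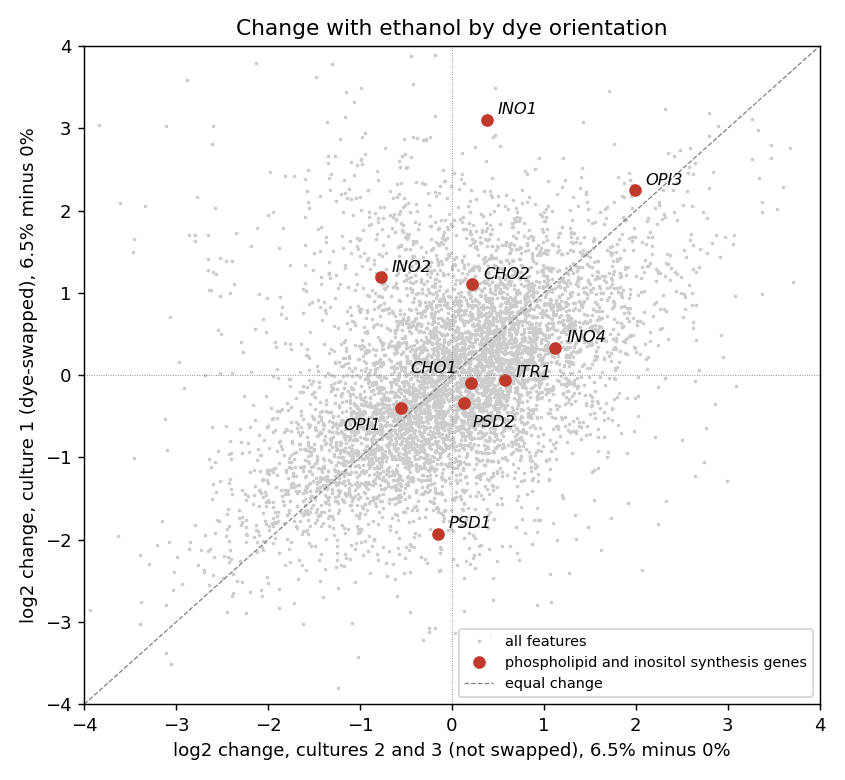
Log2 change between the dye-swapped arrays of culture 1 (vertical) against the change between the arrays of cultures 2 and 3 (horizontal), each 6.5% minus 0% ethanol, for the 10 genes (red) and all features (grey); 36 features lie outside the axes. OPI3 lies near the line of equal change, and INO1, INO2 and PSD1 lie away from it.

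Other genes of phospholipid metabolism changed in both directions. Of 44 such genes, all measured, 4 rose and 8 fell, which is 27.3% against 18.1% of all features. Their median change was 0.32, against 0.04 over all features, and 0.13 against 0.03 with the probe-number trend removed. With the replicate number as a block 2 rose and 6 fell (18.2%, against 9.57% of all features), and with the probe-number trend removed 3 rose and 5 fell (18.2%, against 13.2%). In all 3 of these fits 7 genes were called, namely GIT1, INM1, ITR2, PLB2, PLB3, SEC14 and SAH1. The share of all features called in all 3 was not computed, so the 7 cannot be set against it. Without 6.5% culture 2 none of the 44 was called in limma (13 at an unadjusted p below 0.05). In that fit 2 of all 6345 features were called (1552 at an unadjusted p below 0.05). Without 6.5% culture 3 there was 1 call, against 51 over all features. Without 0% culture 2 there were 7 calls, against 7.64% of all features (485), and without 0% culture 3 there were 8, against 11.9% (754).

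**Figure D4:**
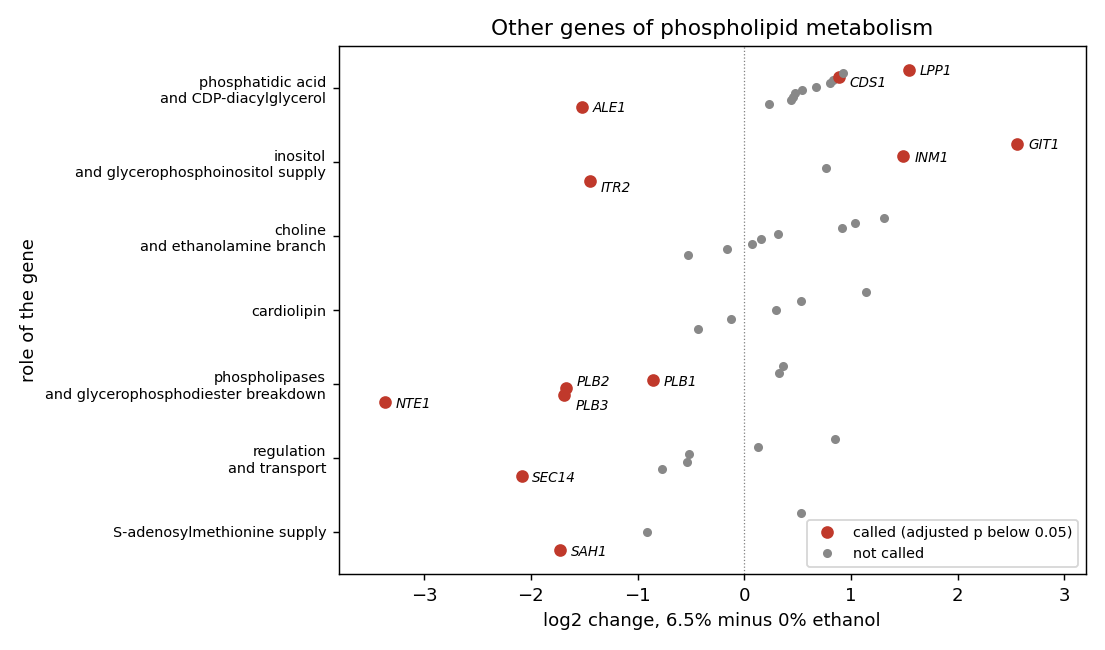
Log2 change, 6.5% minus 0% ethanol, of the 44 other genes of phospholipid metabolism, grouped by role and spread within each row for visibility. Called genes are red and named. The phospholipase row holds 4 of the 8 genes that fell, and no gene of the choline and ethanolamine branch or of cardiolipin synthesis was called as deposited (CKI1 was with the probe-number trend removed).

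In the supply of inositol and glycerophosphoinositol 2 of 4 genes rose and 1 fell, where 7.69% and 10.4% of all features did. GIT1 (YCR098C), which takes up glycerophosphoinositol, read 2.93, 1.63 and 1.00 with ethanol, against 0.49, −1.30 and −1.30 without. All arrays with ethanol were higher, and GIT1 rose by 2.56 ± 0.27 or 5.90-fold (adjusted p = 0.00633). Its call was lost without 6.5% culture 2 (2.37, adjusted p = 0.0591). INM1 (YHR046C), a phosphatase that turns the product of Ino1 into inositol, read 1.24, 1.64 and 1.77 with ethanol, against 0.03, 0.34 and −0.20 without.

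INM1 rose by 1.49 ± 0.27 or 2.82-fold (adjusted p = 0.0168). Its change was 1.21 between the swapped arrays and 1.64 between the others, where INO1, which acts a step earlier, had 3.10 and 0.38. ITR2 (YOL103W), the minor inositol transporter, read −1.15, −1.08 and −1.29 with ethanol, against 0.59, 0.13 and 0.09 without. The arrays with ethanol were close together and all below the controls, and ITR2 fell by 1.45 ± 0.25 (adjusted p = 0.0146). The paralogue ITR1 was not called, at 0.36 ± 0.28, and the difference between the transporters was not tested. INM2, the remaining gene of this role group, was at 0.77 ± 0.29 with overlapping groups and was not called (adjusted p = 0.108 in limma). Without 6.5% culture 2 INM1 was at 1.49 and ITR2 at −1.55, and without 6.5% culture 3 at 1.41 and −1.43. These changes were of similar size but were not called (adjusted p from 0.0800 to 0.0943), in fits that called 2 and 51 of all features.

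Of 6 phospholipases and glycerophosphodiester enzymes 4 fell, where 10.4% of all features did. With the probe-number trend removed 2 of the 6 fell, against 464 of all 6345 features. The median change of the 6 was −1.26. PLB2 (YMR006C), a phospholipase B, read −1.64, −1.19 and −1.34 with ethanol, against 0.53, 0.27 and 0.06 without. It fell by 1.67 ± 0.27 (adjusted p = 0.0131). PLB3 (YOL011W), a phospholipase B that acts on phosphatidylinositol and phosphatidylserine, read −1.16, −0.93 and −1.24 with ethanol, against 0.36, 0.58 and 0.78 without, and fell by 1.69 ± 0.25 (adjusted p = 0.0101). For both genes every array with ethanol lay below every control, in both orientations. Their calls were lost without 6.5% culture 2 (adjusted p = 0.0696 and 0.0675) or 6.5% culture 3 (0.0734 for each). PLB1 (YMR008C) was at −0.85 ± 0.24 and just inside the threshold (adjusted p = 0.0499), and was called in 1 of 13 alternative settings.

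NTE1 (YML059C), which deacylates phosphatidylcholine, read −1.04, −1.41 and −1.79 with ethanol, against −0.45, 2.88 and 3.43 without. NTE1 fell by 3.37 ± 0.80 (adjusted p = 0.0326), which leaned on 0% cultures 2 and 3, which read far above a pool that contained them. The call of NTE1 was lost under the replicate block (adjusted p = 0.0616), with the trend removed (adjusted p = 0.0513) and without culture 2 or 3 of either group (adjusted p from 0.0845 to 0.131). Between the swapped arrays NTE1 differed by −0.59.

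Of 12 genes of phosphatidic acid and CDP-diacylglycerol metabolism, phosphatases included, 2 rose and 1 fell as deposited. Over all features 7.69% rose and 10.4% fell. None of the 12 was called in limma with the probe-number trend removed, where 13.2% of all features were. At an unadjusted p below 0.05 there were 5 in each fit. Over all 6345 features there were 2237 as deposited and 2015 with the trend removed. LPP1 (YDR503C), a lipid phosphate phosphatase, was at 1.55 ± 0.38 (adjusted p = 0.0343, and 0.0603 under the replicate block). The call of LPP1 was lost in 9 of 13 alternative settings. Its change was 0.61 between the swapped arrays and 2.01 between the others. CDS1 (YBR029C), CDP-diacylglycerol synthase, was at 0.89 ± 0.24 (adjusted p = 0.0481), and its call was lost in all 13 alternative settings (0.40 with the trend removed). ALE1 (YOR175C), a lysophospholipid acyltransferase, was at −1.52 ± 0.35 (adjusted p = 0.0302) with overlapping groups, and was called in 2 of 13 alternative settings.

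No gene of the choline and ethanolamine branch (8 genes) or of cardiolipin synthesis (5 genes) was called in limma, where 18.1% of all features were. At an unadjusted p below 0.05 there were 2 and 0, against 2237 of all 6345 features. With the probe-number trend removed CKI1, choline kinase, was called (1.10, adjusted p = 0.0469). PCT1 (YGR202C), the rate-limiting enzyme of the choline branch, had the largest change of the first group, at 1.31 ± 0.39 (adjusted p = 0.0608). It read 0.48, 1.54 and 1.11 with ethanol, against 0.19, −0.76 and −0.25 without, and was called without the swapped arrays (1.83, adjusted p = 0.0211). PGS1 (YCL004W), which starts cardiolipin synthesis, was at 1.14 ± 0.60 (adjusted p = 0.225), with arrays without ethanol from −3.15 to 1.91.

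Of 6 genes of regulation and transport 1 fell, where 10.4% of all features did. SEC14 (YMR079W), the phosphatidylinositol and phosphatidylcholine transfer protein of the Golgi, read −1.62, −0.66 and −0.80 with ethanol, against 0.34, 1.67 and 1.16 without. It fell by 2.09 ± 0.26 or 4.25-fold (adjusted p = 0.00790), and its call was lost without 6.5% culture 2 (adjusted p = 0.0594) or 6.5% culture 3 (adjusted p = 0.0560). IRE1 and HAC1, the sensor and the factor of the unfolded protein response, which is needed for full INO1 expression, were at 0.13 ± 0.29 and 0.85 ± 0.49 and were not called.

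Of 3 genes that make S-adenosylmethionine, the methyl donor of Cho2 and Opi3, or clear its by-product, 1 fell, where 10.4% of all features did. SAH1 (YER043C), which clears the S-adenosylhomocysteine that these methylations leave, read −1.10, −1.22 and −1.63 with ethanol, against 0.05, 0.74 and 0.43 without. SAH1 fell by 1.72 ± 0.30 or 3.31-fold (adjusted p = 0.0150), while OPI3 rose by 2.07 ± 0.35. The call of SAH1 was lost without 6.5% culture 2 (adjusted p = 0.0828) or 6.5% culture 3 (adjusted p = 0.0835). SAM1 and SAM2, the S-adenosylmethionine synthetases, were at −0.91 ± 0.26 and 0.53 ± 0.33 and were not called (adjusted p = 0.0530 and 0.293).

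Genes known for control by Ino2 and Ino4 did not change in one direction. Of 16 such genes, 8 of which are among the 10, OPI3 and CDS1 rose and FAS2 and ACC1 fell, which is 25.0% against 18.1% of all features. The median change of the 16 was 0.09, against 0.04 over all features, and −0.14 against 0.03 with the probe-number trend removed. ACC1, acetyl-CoA carboxylase, read −1.46, −1.03 and −1.21 with ethanol, against 0.00, 0.11 and 0.13 without, and fell by 1.32 ± 0.24 (adjusted p = 0.0165). FAS2, the alpha subunit of fatty acid synthase, fell by 1.86 ± 0.29 (adjusted p = 0.0119). FAS1, the beta subunit, was at −0.26 ± 0.32 and was not called, and the difference between the subunits was not tested. No member of this list was called without 6.5% culture 2 or without 6.5% culture 3 in limma, with 2 and 51 calls over all features. At an unadjusted p below 0.05 there were 4 and 5 members, against 1552 and 1534 of all 6345 features.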

How the data were processed

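The authors deposited 1 table of log2 ratios for 6368 probes on 6 arrays. For the scanner, background correction, normalization and ratio direction, the entry is: not given in the sources used here. The deposited values reach 6.64 and −6.64, with a median between 0.01 and 0.04 per array. Swapped arrays were multiplied by −1. Probes were named from the platform annotation through gene identifiers of RefSeq assembly R64 (5673 probes had 1 gene, 695 none), and the probes of 23 genes were averaged. No promoter or protein sequence was used here, and 1 gene of phospholipid metabolism is not reported here.

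With limma 3.58.1 (R 4.3.3) the change was estimated on all 6 arrays as 6.5% minus 0%, with dye orientation as a term and 3 residual degrees of freedom. Orientation is balanced, so the change equals the difference of the group means. p-values were adjusted over all 6345 features.

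Same-numbered cultures deviated together from their group means (r = 0.70, 0.48 and 0.43 for cultures 1, 2 and 3), so a replicate block was also fitted. The highest r with a differently numbered culture was −0.48, 0.42 and 0.51 for cultures 1, 2 and 3. Culture 3 thus deviated more with another number than with its own, and culture 2 about equally. Orientation shares the culture numbers, and the difference of culture 2 minus culture 3 correlated at −0.04 between the groups. Pairing by number beyond orientation was therefore not shown.

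The 10 genes and both further lists were chosen with earlier results of these data known. All 10 were named, together with each called gene of a role group or, where none was called, that with the largest change, and the 5 named features most like INO1. CKI1, INM2, HAC1, IRE1, SAM1, SAM2, FAS1, FAS2 and ACC1 were named after their values were seen. Alternatives were no dye term, the replicate block, removal of a loess trend along the probe number (span 0.3), equal spread, quantile normalization, each array left out, unswapped arrays alone, and the pool alone as baseline. Leaving out 1 swapped array gives the fit of the unswapped arrays, since the dye term then absorbs the other.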

Additional observations from a re-analysis of the deposited data

How the results depend on the processing

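Over all features 1150 were called, and 78 without the dye term, 607 with the replicate block, 313 at equal spread, 484 after quantile normalization, 2451 against the pool alone, and 2 to 1253 with 1 array left out. Among the 10 genes the 1 call became 0 in limma without the dye term, at equal spread and after quantile normalization (2 at an unadjusted p below 0.05 each), 2 with the trend removed and on the unswapped arrays, 4 against the pool, and 0 to 2 with 1 array left out. The replicate block changed no call among the 10. The 12 calls among the 44 further genes became 0 without the dye term (13 unadjusted), 8 with the replicate block, 8 with the trend removed, 6 at equal spread, 7 after quantile normalization, 22 against the pool, and 0 to 13 with 1 array left out. The 4 calls among the 16 genes under Ino2 and Ino4 became 0 without the dye term (4 unadjusted), 1 at equal spread, 2 after quantile normalization, 3 with the replicate block, 4 with the trend removed, 6 against the pool, and 0 to 3 with 1 array left out. Over all features the change had an unadjusted p below 0.05 for 2237 in limma. This count was 1119 without the dye term, 1677 at equal spread and 1757 after quantile normalization. The interaction was called for 30 features, and for 146 at equal spread.

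Among single genes, 9 of 312 alternative values reversed sign, all near 0 and not called. With 1 array left out INO2 lay between −0.77 and 0.16, positive without 6.5% culture 2, 0% culture 2 or 0% culture 3. In these fits CHO1 lay between −0.052 and 0.21, negative without culture 2 of either group, and it was at −0.13 with the trend removed. PSD2 lay between −0.12 and 0.13, positive at 0.13 without a swapped array or both. Calls were lost in 80 values and gained in 11, and 212 kept their direction and their side of the threshold. The fit against the pool takes it as 1 control without spread and has 1 residual degree of freedom. Signal over background is unknown, since no intensity was used here. The cause of these shifts was not tested, and the fits that leave arrays out also hold fewer of them.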

Other observations

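The features most like INO1 over the 6 arrays were CDC45, which starts DNA replication forks, RGD1, TRP2 of tryptophan synthesis, ERP3 of vesicle transport and GPI11 of glycolipid anchor synthesis, with Pearson r from 0.97 to 0.99. None of them is on the lists above. All 5 were highest on the dye-swapped array of 6.5% culture 1, from 0.42 for CDC45 to 1.57 for ERP3, and without that array r was between 0.65 and 0.91. The arrays share their pool and their dye orientations, so these values are a description of 6 arrays.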
